A study of Homo sapiens with 6 samples.

Results

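The genes described here are 10 chromatin regulators that are recurrently mutated in bladder cancer, out of 20162 protein-coding genes annotated by GENCODE on GRCh37 (hg19). They were chosen by name and comprise the histone methyltransferases KMT2A, KMT2C and KMT2D, the histone demethylase KDM6A, the acetyltransferases EP300 and CREBBP, the SWI/SNF subunit ARID1A, the cohesin subunit STAG2 and the remodellers CHD6 and CHD7. Each gene was examined over its annotated span plus 10 kb on both sides, and the 10 windows together covered 2074 kb. The files hold no genotypes, so whether any of these genes is mutated in the cells studied was not analysed here.

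The study asked where plasminogen activator inhibitor-1 (PAI-1) lies on DNA. PAI-1 is a secreted inhibitor of the plasminogen activators that is also seen inside the nucleus. Chromatin immunoprecipitation with sequencing (ChIP-seq) used an anti-PAI-1 antibody on nuclei of RT112 cells and UM-UC-3 cells, both established lines from human bladder cancer. Of the 6 samples, 4 are PAI-1 ChIP libraries with a peak list (2 biological replicates per cell line), and the 2 inputs, 1 per line, were not analysed here. No treatment, genotype or time separates the samples, so the cell line is the only comparison, and anything else that differs between the lines, such as gene copy number, cannot be told apart from it.

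Chromatin regulators decide which stretches of DNA are open. KMT2 enzymes add methyl groups to histone H3 that mark active promoters and enhancers, and KDM6A, a partner of KMT2C and KMT2D, takes away the repressive methyl mark that Polycomb complexes lay down. EP300 and CREBBP acetylate histones at enhancers, ARID1A lets the SWI/SNF complex reach and slide nucleosomes, the CHD proteins are other ATP-driven remodellers, and STAG2 belongs to the cohesin ring that folds chromatin into loops. In urothelial tumours several of these genes are inactivated by truncating mutations, which is why they are grouped here.

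A peak is a region that the peak caller MACS2 found enriched in 1 library, and its score is a −log10 probability that can be ranked within a library. The lists held 96423 and 60227 peaks in RT112 replicates 1 and 2, and 109287 and 114094 in UM-UC-3 replicates 1 and 2, with a lowest score of about 2.0 in each. RT112 replicate 2 thus had the fewest peaks, also over all protein-coding genes (0.0194 peaks per kb against 0.0312, 0.0353 and 0.0371). Reads per peak and the depth of each library are unknown from these lists.

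The best-scoring peaks that both replicates of a cell line shared lay in ARID1A and STAG2 in RT112 and in KDM6A and STAG2 in UM-UC-3, and the sequences of the RT112 peak of STAG2 and the UM-UC-3 peak of KDM6A are shown as examples of the DNA under strong signals. The best UM-UC-3 peak of KMT2D and the 1 member region seen in 3 libraries, in CHD6, were added after their values were seen. All are introns, are read 5′ to 3′ on the plus strand of GRCh37 and are at most the central 300 bases of the peak. Capitals mark bases within stretches of 14 bases that occur at least 1000 times in the genome, a measure of repeated sequence that was also chosen after the values were seen.
STAG2 in RT112, chrX:123357251-123357533: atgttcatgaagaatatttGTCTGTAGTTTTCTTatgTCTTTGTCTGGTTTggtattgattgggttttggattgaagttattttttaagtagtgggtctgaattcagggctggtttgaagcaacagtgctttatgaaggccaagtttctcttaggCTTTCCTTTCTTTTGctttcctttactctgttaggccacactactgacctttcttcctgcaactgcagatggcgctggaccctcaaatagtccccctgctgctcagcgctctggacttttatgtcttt
KDM6A in UM-UC-3, chrX:44898165-44898390: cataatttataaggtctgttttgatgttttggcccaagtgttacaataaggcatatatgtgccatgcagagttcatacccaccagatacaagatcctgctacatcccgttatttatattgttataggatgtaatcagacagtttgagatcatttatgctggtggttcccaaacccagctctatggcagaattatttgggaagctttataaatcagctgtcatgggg
KMT2D in UM-UC-3, chr12:49450295-49450594: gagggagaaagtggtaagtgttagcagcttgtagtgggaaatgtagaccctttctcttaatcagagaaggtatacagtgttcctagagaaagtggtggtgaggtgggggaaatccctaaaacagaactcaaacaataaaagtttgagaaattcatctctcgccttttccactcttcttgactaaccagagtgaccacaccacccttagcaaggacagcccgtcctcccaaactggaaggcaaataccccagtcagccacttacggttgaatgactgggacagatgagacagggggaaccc
CHD6 in 3 libraries, chr20:40102923-40103222: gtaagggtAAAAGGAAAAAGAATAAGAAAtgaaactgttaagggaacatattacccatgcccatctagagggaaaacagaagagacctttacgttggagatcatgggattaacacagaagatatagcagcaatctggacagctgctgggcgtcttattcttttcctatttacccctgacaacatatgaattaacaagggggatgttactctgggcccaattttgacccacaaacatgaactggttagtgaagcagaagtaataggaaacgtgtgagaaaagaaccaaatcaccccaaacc

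Repeated sequence made up 15.5% of the STAG2 peak of RT112 and 7% of the CHD6 stretch, and none of the KDM6A and KMT2D stretches. These shares describe the printed examples alone, which leave out other strong peaks, among them the best-scoring one, and those over all member peaks are given further on.

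Peaks were found at nearly all members in both cell lines. In the order RT112 replicates 1 and 2 and UM-UC-3 replicates 1 and 2, 10, 9, 10 and 9 members had a peak, against 65.9%, 54.7%, 70.9% and 71.8% of all protein-coding genes. In RT112, 9 of the 10 had a peak in both replicates, against 50.2% of all genes and 88.8% of the 1728 genes nearest to the members in length. In UM-UC-3 it was also 9 of 10, against 65.7% and 95%, and 8 members had a peak in all 4 libraries, against 41.7% and 86.3%. The members are long genes, and beside genes of their own length these counts do not stand out. The missing pairs were KMT2D, with no peak in RT112 replicate 2, where the nearest lay 59.4 kb from the gene, and EP300, with none in UM-UC-3 replicate 2, where the nearest lay 33.2 kb away.

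Summed over the 10 genes there were 69 and 40 peaks in the RT112 replicates and 67 and 65 in the UM-UC-3 replicates. This gave 0.0263 ± 0.00989 peaks per kb (SD, n = 2) in RT112 and 0.0318 ± 0.000682 (SD, n = 2) in UM-UC-3. The libraries of the lines overlapped and the difference of 0.00555 was smaller than the spread of RT112 (exact permutation test, two-sided, p = 1). With 2 libraries against 2 this test cannot give a p below 0.33, for the sum or for any single gene. The sign rested on RT112 replicate 2, since without it the difference was -0.00145. Divided by the density of each library over all protein-coding genes, the members stood at 1.07 and 0.993 in RT112 and at 0.915 and 0.846 in UM-UC-3, a difference of -0.150 in this ratio, with no overlap between the lines (two-sided exact permutation test, p = 0.33).

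The single genes moved in different directions. Both UM-UC-3 libraries lay above both RT112 libraries in peaks per kb for 4 members, KMT2C, KMT2D, ARID1A and CREBBP, against 30.8% of all genes and 44.4% of genes of similar length. Both RT112 libraries lay above both UM-UC-3 libraries for 1 member, CHD7, against 9.62% and 8.28%. For the other 5 the libraries overlapped. These counts depended on the scale. When each density was divided by that of the same library over the rest of the gene's chromosome, UM-UC-3 lay above for 3 members, KMT2C, KMT2D and CREBBP, against 26.8% of all genes and 30.6% of genes of similar length. RT112 lay above for 5 members on that scale, KDM6A, KMT2A, EP300, STAG2 and CHD7, against 22.8% and 30.7%, and ARID1A and CHD6 overlapped. Some of these separations came from the divisor. KMT2A had 2 peaks in RT112 replicate 1 and 2 in each UM-UC-3 library, with ratios of 0.531 against 0.439 and 0.430. EP300 had 1 peak each for RT112 replicate 2 and UM-UC-3 replicate 1 (0.742 against 0.444). KDM6A had 7 each for the same libraries (1.14 against 0.807). STAG2 had fewer peaks for RT112 replicate 2 than for either UM-UC-3 library, at 0.788 against 0.744 and 0.759. KMT2C, KMT2D, CREBBP and CHD7 thus did not overlap on either scale. The share of all genes for which this holds on both scales was not computed, so it does not set these members apart. None of the 4 counts by line and scale was tested against its background.

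**Figure D1:**
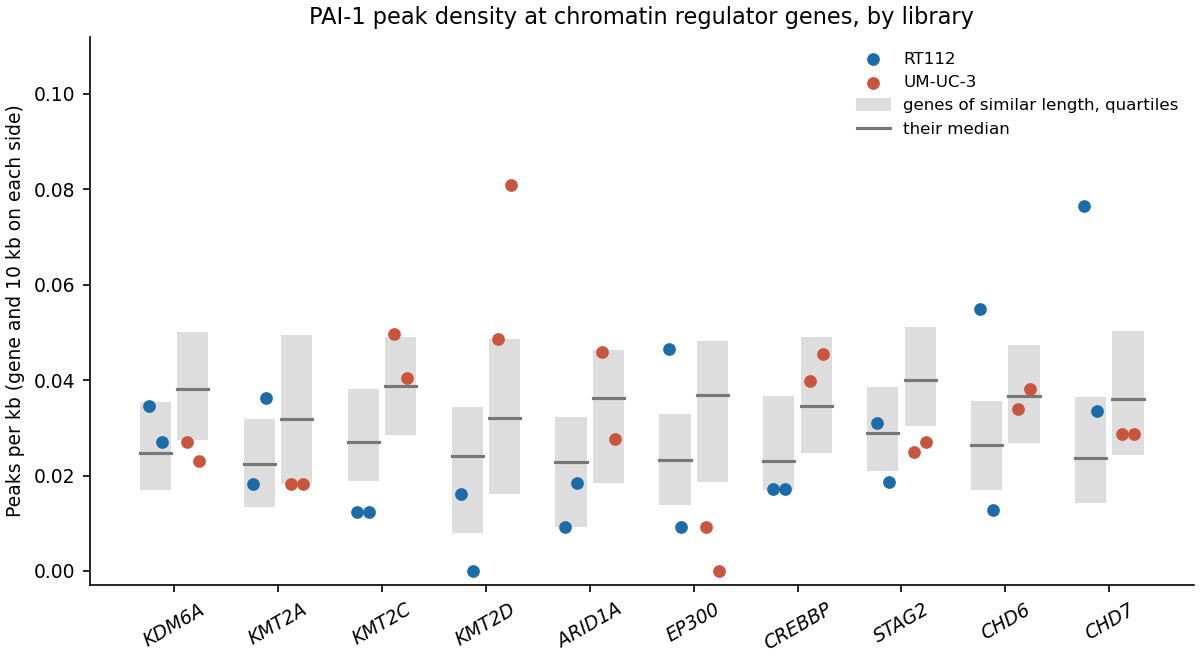
Peaks per kb (gene and 10 kb on each side, linear axis) of the 10 genes, with 1 point per library, blue for RT112 and red for UM-UC-3. Grey bars span the quartiles and grey lines the median of the 200 genes nearest in length, averaged over the 2 replicates. On this scale KMT2C, KMT2D, ARID1A and CREBBP have both red points above both blue points, CHD7 has the reverse, and EP300 in UM-UC-3 lies near 0.

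Among the methyltransferases, KMT2C and KMT2D act mainly at enhancers, and KMT2A acts at promoters of developmental genes. KMT2C and KMT2D had more peaks in UM-UC-3, and KMT2A did not. Whether peak numbers go with these roles was not tested. KMT2C (chromosome 7, 302 kb) had 4 and 4 peaks in RT112 against 16 and 13 in UM-UC-3. This was 0.0124 peaks per kb in each RT112 library and 0.0451 ± 0.00659 (SD, n = 2) in UM-UC-3, a difference of 0.0326 that was larger than the spread of the replicates (exact permutation test, two-sided, p = 0.33). Beside the 200 genes nearest in length, KMT2C stood at percentiles 8 and 21 in the RT112 libraries and at 78.5 and 53.5 in the UM-UC-3 libraries. It was thus low for its length in RT112 and at or above the middle in UM-UC-3. The 8 RT112 peaks were 8 separate regions, none found in both replicates, whereas 12 of 17 regions in UM-UC-3 were found in both. The best of these was an intron peak with scores of 11.2 and 5.11, 270 kb from the 5′ end of the gene.

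Parts of KMT2C are duplicated on chromosome 21, and short reads cannot always be placed between such copies. A near-identical copy elsewhere in the genome (at least 95% identity over at least 80% of the peak) was found for 2 of 4 and 2 of 4 peaks in RT112 and for 6 of 16 and 5 of 13 in UM-UC-3. The best copy was on chromosome 21 for 1 peak in each RT112 library and for all of those in UM-UC-3. Without these peaks KMT2C had 2 and 2 in RT112 against 10 and 8 in UM-UC-3, so the libraries still did not overlap. Its percentiles among genes of similar length were not computed without them, so its place at or above the middle in UM-UC-3 includes these peaks.

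**Figure D2:**
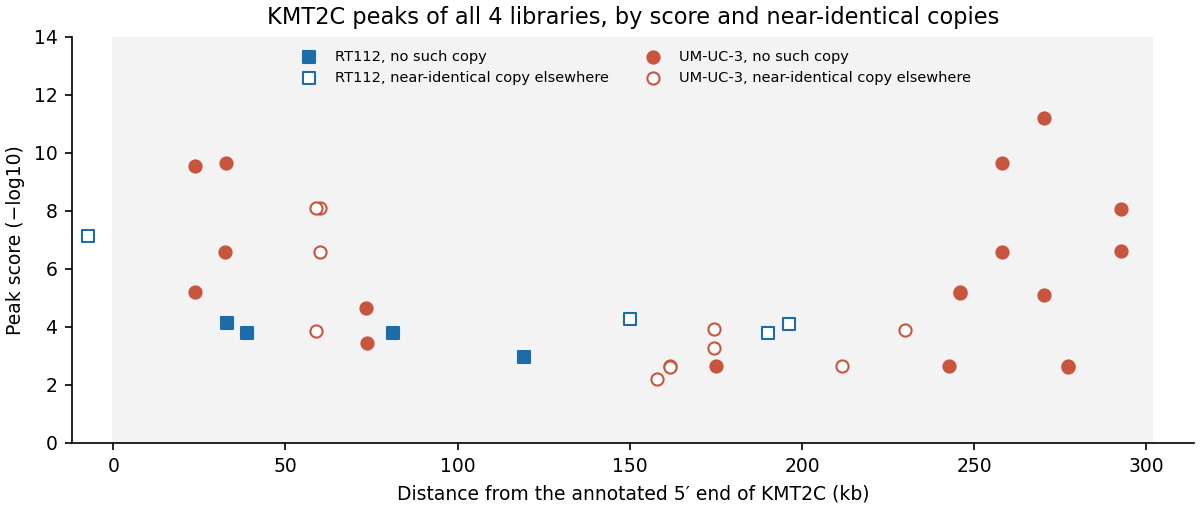
Peaks of KMT2C in all 4 libraries, with distance from the annotated 5′ end in kb on the horizontal axis and peak score on the vertical axis. Squares are RT112, circles are UM-UC-3, and open symbols are peaks with a near-identical copy elsewhere in the genome. Most UM-UC-3 peaks without a copy lie toward either end of the gene, and the highest score is 11.2.

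KMT2D (chromosome 12, 41.8 kb), the shortest member, had 1 and 0 peaks in RT112 against 3 and 5 in UM-UC-3. In peaks per kb it was the highest member in UM-UC-3, at 0.0647 ± 0.0229, and the lowest in RT112, at 0.00809 ± 0.0114 (SD, n = 2 each), a difference of 0.0566 (exact permutation test, two-sided, p = 0.33). In UM-UC-3 the same 3 positions were hit in both replicates. They were an intron peak 3.94 kb from the 5′ end with scores of 9.18 and 6.38, a coding-exon peak 17.8 kb in with 3.14 and 3.14, and an exon peak near the 3′ end, 37.6 kb in, with 3.06 and 3.85. The single RT112 peak, at 14.4 kb in a coding exon with a score of 2.70, matched none of them. The gene span itself held 3 peaks in each UM-UC-3 library. In UM-UC-3 replicate 2 the window held 2 more, downstream in sequence that PRKAG1 and ENSG00000288710 also cover, and these were not repeated. The gene is short, so 1 peak more or less moves its density strongly, and in both lines its libraries overlapped those of the next member in the order of densities.

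KMT2A (chromosome 11, 90.4 kb) had 2 and 4 peaks in RT112 against 2 and 2 in UM-UC-3, and its libraries overlapped. Each line repeated a single KMT2A region. In RT112 this was a coding-exon peak 45.3 kb from the 5′ end with scores of 2.67 and 3.86, in sequence that another annotated coding gene (ENSG00000285827) also covers, and in UM-UC-3 an intron peak 79.8 kb in with 6.61 and 8.05. At 0.0181 peaks per kb in both UM-UC-3 libraries, KMT2A was the second lowest member in that line.

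KDM6A (chromosome X, 240 kb), the demethylase, had 9 and 7 peaks in RT112 against 7 and 6 in UM-UC-3. The libraries overlapped, at 0.0308 ± 0.00545 and 0.0250 ± 0.00272 peaks per kb (SD, n = 2 each; exact permutation test, two-sided, p = 0.667). Among genes of similar length it stood at percentiles 60 and 72.5 in RT112 against 25.5 and 16.5 in UM-UC-3. Both lines repeated 5 KDM6A regions, and none of them was the same region. The best in UM-UC-3 was the intron peak shown above, whose scores of 7.79 and 16.5 gave it the highest mean of any repeated member peak in that line. In RT112 the best repeated peak scored 4.94 and 2.97.

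The acetyltransferases EP300 and CREBBP are close paralogues. In peaks per kb the libraries of the lines overlapped for EP300 and not for CREBBP. EP300 (chromosome 22, 87.5 kb) had 5 and 1 peaks in RT112 against 1 and 0 in UM-UC-3, which overlap. In UM-UC-3 it lay at percentiles 10.5 and 2 of genes of similar length and was the lowest member, at 0.00465 ± 0.00658 peaks per kb (SD, n = 2). The rest of chromosome 22 held 0.0190 and 0.0125 peaks per kb in the RT112 replicates against 0.0209 and 0.0222 in the UM-UC-3 replicates. Relative to it EP300 stood at 2.45 and 0.742 in RT112 against 0.444 and 0 in UM-UC-3, with no overlap (difference in this ratio -1.37; exact permutation test, two-sided, p = 0.33). The 1 repeated EP300 peak, in an RT112 intron 17.3 kb from the 5′ end, had low scores of 3.18 and 2.37.

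CREBBP (chromosome 16, 156 kb) had 3 and 3 peaks in RT112 against 7 and 8 in UM-UC-3. The density was 0.0171 peaks per kb in each RT112 library and 0.0427 ± 0.00403 in UM-UC-3 (SD, n = 2), a difference of 0.0256 (exact permutation test, two-sided, p = 0.33). The median score of the CREBBP peaks was 3.84 in UM-UC-3 replicate 1 and 2.73 in replicate 2, against 3.88 and 3.85 for all peaks of those libraries. The highest CREBBP score in that line was 5.19, and with peaks of a score of at least 5 alone the difference turned to -0.00569. Scores rank within a library, so a cut of 5 need not mean the same in each. The best repeated peaks were an RT112 intron peak 74.4 kb in with scores of 5.07 and 5.35, and a UM-UC-3 intron peak 59.3 kb in with 4.51 and 4.44.

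ARID1A (chromosome 1, 88.9 kb) had 1 and 2 peaks in RT112 against 5 and 3 in UM-UC-3, or 0.0138 ± 0.0065 and 0.0367 ± 0.0130 peaks per kb (SD, n = 2 each; exact permutation test, two-sided, p = 0.33). Few as they were, the RT112 peaks held the highest mean score of any repeated member peak, 17.7 and 15.5 at 27.9 kb from the 5′ end, in an intron. In UM-UC-3 the best repeated ARID1A peak lay 78.4 kb in, at a non-coding exon, with scores of 6.03 and 11.8. Limited to scores of at least 5, the lines had equal mean ARID1A densities.

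STAG2 (chromosome X), the cohesin subunit, had 15 and 9 peaks in RT112 against 12 and 13 in UM-UC-3. It was the 1 member below the median of genes of similar length in all 4 libraries, at 0.868 and 0.853 of that median in RT112 against 0.630 and 0.665 in UM-UC-3. Its annotated span of 462 kb is set by a transcript with no defined coding sequence, while the longest coding transcript spans 141 kb. That shorter span held only 2 and 0 peaks in RT112 against 1 and 2 in UM-UC-3. The high-scoring STAG2 peaks thus lay past the coding transcript. The RT112 peak of 13.0 and 18.8 was 263 kb from the 5′ end, and the UM-UC-3 peak of 9.65 and 8.35 was 303 kb away in sequence that other genes, SH2D1A and TEX13D, also cover. A peak of UM-UC-3 at 168 kb had 1768 near-identical copies in the genome. The difference between the lines, 0.00104 peaks per kb, was smaller than the spread of the replicates.

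The remodellers had the highest mean densities in RT112, although no neighbours in that order from CHD7 down to STAG2 differed beyond the spread of their replicates. CHD7 (chromosome 8, 189 kb) had 16 and 7 peaks in RT112 against 6 and 6 in UM-UC-3, or 0.0549 ± 0.0304 peaks per kb and 0.0287 in each UM-UC-3 library (SD, n = 2; exact permutation test, two-sided, p = 0.33). The difference of -0.0263 was smaller than the spread of the RT112 replicates and shrank to -0.00478 without RT112 replicate 1. Against genes of similar length CHD7 stood at percentiles 96 and 80.5 in RT112 against 37.5 and 30.5 in UM-UC-3. RT112 repeated 6 CHD7 regions, the best with scores of 13.0 and 10.8 at 48.9 kb, and 1 other, with scores of 7.83 and 9.78, lay on sequence with 13375 or more near-identical copies. Without that peak CHD7 had 15 and 6 peaks in RT112 against 6 and 6 in UM-UC-3, so RT112 replicate 2 tied with UM-UC-3 (difference -0.0215, exact permutation test, two-sided, p = 1). The RT112 percentiles above include that peak and were not computed without it. Limited to scores of at least 5, the mean CHD7 densities of the lines were equal.

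CHD6 (chromosome 20, 216 kb) had 13 and 3 peaks in RT112 against 8 and 9 in UM-UC-3, and 1 library decided its direction. The mean difference was 0.00212 peaks per kb, and without RT112 replicate 2 it was -0.0190. Chromosome 20 was peak-rich in RT112 (0.0541 and 0.0364 peaks per kb over the rest of the chromosome), and CHD6 stood at 1.02 and 0.348 of that level. All 3 CHD6 peaks of RT112 replicate 2 were found again in replicate 1, with scores as high as 13.0 and 17.1 at 93.0 kb from the 5′ end. In UM-UC-3, 7 of 10 CHD6 regions were found in both replicates, 1 of them over a coding exon 166 kb in, with 6.61 and 5.16.

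**Figure D3:**
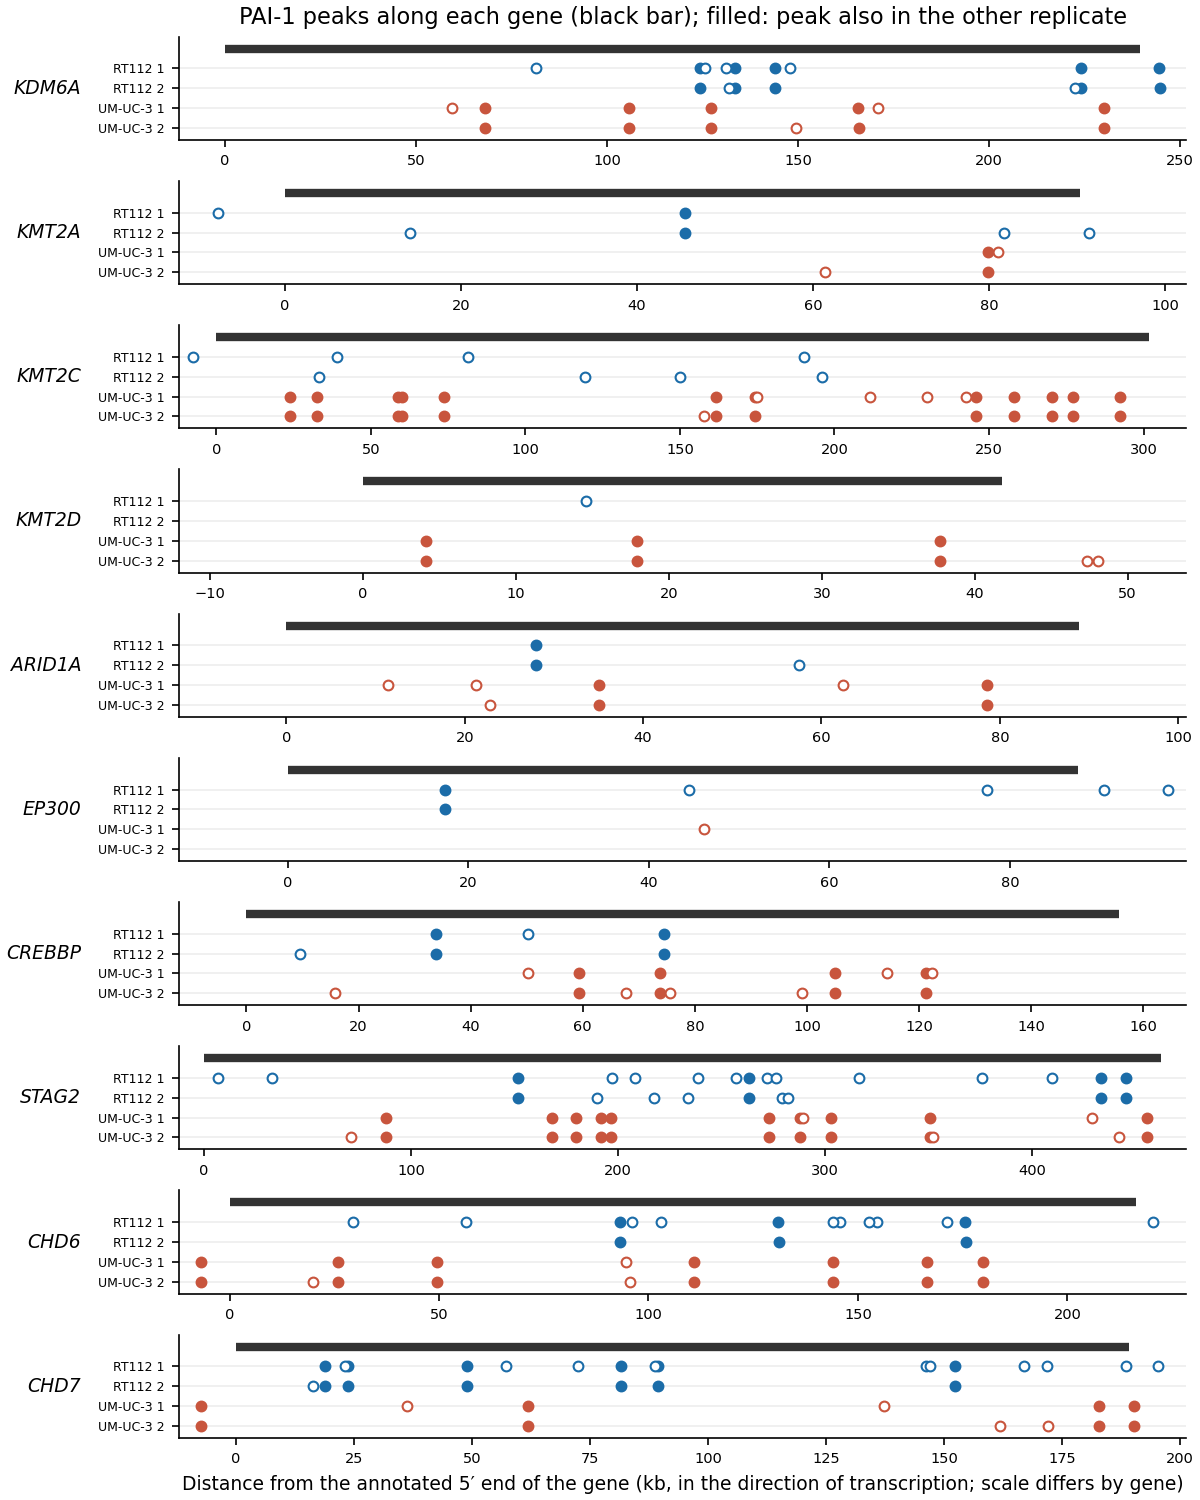
Peak midpoints along each gene in the 4 libraries, with distance from the annotated 5′ end in kb on the horizontal axis (the scale differs by gene) and the gene as a black bar. Filled circles are peaks that overlap a peak of the other replicate, and open circles are peaks that do not. The filled circles of RT112 and of UM-UC-3 lie at different positions, KMT2C has none in RT112, and no circle lies within 3 kb of any 5′ end.

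No member had a peak within 3 kb of its 5′ end in any library, that is in 0 of 40 pairs of member and library. Over all genes the share was 9.52% and 6.3% in the RT112 replicates and 12.2% and 12.8% in the UM-UC-3 replicates, and 8.91%, 5.79%, 13.4% and 13.4% in the same order among genes of similar length, so few were to be found among 10 genes. The nearest peak was that of KMT2D, 3.94 kb inside the gene in both UM-UC-3 replicates. Upstream peaks of CHD6 at 6.75 and 6.52 kb and of CHD7 at 7.32 and 7.35 kb were both repeated in UM-UC-3. RT112 replicate 1 had a STAG2 intron peak at 6.61 kb and an upstream KMT2C peak at 7.31 kb. Starts of other annotated coding transcripts are a different matter. Within 3 kb of one lay 13 and 12 of the UM-UC-3 member peaks and 2 and 1 of the RT112 peaks. Most of those in UM-UC-3 were inside KMT2C, KMT2D and CREBBP, which also had more peaks in that line than in RT112. The share of all peaks near such starts is not given here, so these counts are not read as a difference between the lines. The 5′ ends of the members are GC-rich, from 52.8% for ARID1A to 78.5% for CREBBP within 500 bp. The median GC content of the member peaks was 39.0% to 41.7% per library, near that of the DNA beside them (40.4% to 41.7%). How well GC-rich DNA was recovered in these libraries was not tested.

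Most peaks were intronic. Introns held 81.2% and 92.5% of the member peaks in the RT112 replicates and 83.6% and 78.5% in the UM-UC-3 replicates. Exons covered 60.8% of the KMT2D span, 34.8% of that of KMT2A and 3.46% to 17.9% of the others. Introns thus filled most of every span but that of KMT2D. STAG2 introns were counted over its annotated span, with 13, 9, 11 and 11 of its peaks, in the same order, outside the longest coding transcript. No intron share of all peaks is given here. Coding exons held 3, 1, 3 and 3 peaks in the same order, in KMT2A, KMT2C, KMT2D, CHD6 and CHD7. In RT112, 7 of 69 and 6 of 40 member peaks scored at least 10, against 10.1% and 8.75% of all peaks. In UM-UC-3 only 1 of 67 and 3 of 65 did, against 9.16% and 9.18%. Score scales are set within each library, so each share is to be read beside that of its own library.

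A larger share of peaks recurred between the UM-UC-3 replicates than between the RT112 replicates. The RT112 lists are unequal in size (96423 and 60227 peaks), which limits the share of replicate 1 that replicate 2 can match. How far list size sets the RT112 shares was not tested. Of the RT112 member peaks, 33.3% of replicate 1 and 57.5% of replicate 2 overlapped a peak of the other replicate by at least 1 bp, against 38.2% and 61.3% of all peaks. The UM-UC-3 shares were higher, 71.6% and 73.8%, against 74.9% and 71.7%. The members followed their libraries within a few percentage points. Merged into distinct regions, RT112 had 86, with 23 in both replicates, and UM-UC-3 had 84, with 48 in both.

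**Figure D4:**
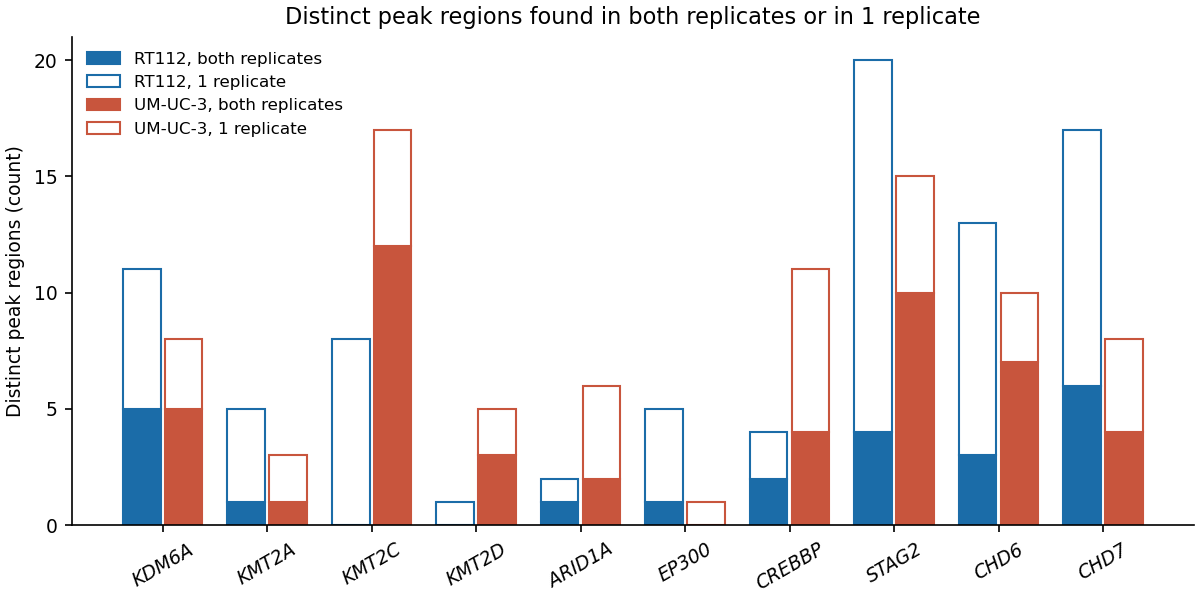
Distinct peak regions per gene (count, axis from 0), blue for RT112 and red for UM-UC-3. The filled part of a bar is the number found in both replicates and the open part the number found in 1. KMT2C has 0 of 8 regions in both replicates in RT112 and 12 of 17 in UM-UC-3, and STAG2 has 4 of 20 and 10 of 15.

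The lines shared almost no positions. Over all 4 libraries the members held 167 distinct regions, of which 3 had a peak in both lines and 0 in all 4 libraries. Few positions were shared in the genome as a whole either, with both lines at 3.24% of the 252971 distinct regions of all peaks. A peak of the other line was overlapped by 3 of 69 and 0 of 40 member peaks of the RT112 replicates (4.35% and 0%), against 7.02% and 7.73% of all their peaks. In UM-UC-3 it was 2 of 67 and 2 of 65 (2.99% and 3.08%), against 5.98% and 5.91%. The CHD6 intron region printed above was found in RT112 replicate 1 and in both UM-UC-3 replicates, with a highest score of 6.61. A CHD7 region over an exon, chr8:61763056-61763519, and a CREBBP intron region, chr16:3880342-3880685, were each found in 1 library per line. No region repeated within RT112 was repeated within UM-UC-3, so a gene with peaks in both lines, such as KDM6A or STAG2, had them at different places.

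Repeated DNA under member peaks was near the level of all peaks in both RT112 libraries and in UM-UC-3 replicate 2. In UM-UC-3 replicate 1 it was lower, and none of these small counts was tested. Bases in the recurrent stretches defined above made up at least 50% of 10 of 69 and 5 of 40 member peaks in RT112 (14.5% and 12.5%, against 15.6% and 15.2% of all peaks). In UM-UC-3 it was 7 of 67 and 10 of 65 (10.4% and 15.4%, against 17.6% and 18.0%). A near-identical copy elsewhere was found for 3 and 3 member peaks in RT112 against 7 and 6 in UM-UC-3, in KMT2C, CHD7 and STAG2 and in no other member. KMT2C alone held 2 and 2 of these in RT112 against 6 and 5 in UM-UC-3. The share of all peaks with such a copy was not computed, so these counts are not read as a difference between the lines.

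The partners of these genes in their complexes were looked at in the same way, from 6 lists of other genes. Among 12 partners of the KMT2 enzymes (COMPASS), 4 had a peak in both replicates of RT112 and 7 in both of UM-UC-3, against 50.2% and 65.7% of all genes. The counts were 6 and 10 of 14 SWI/SNF subunits, 3 and 4 of 7 other acetyltransferases, 7 and 8 of 10 cohesin genes, 3 and 6 of 7 other CHD remodellers and 6 and 7 of 9 genes of the Polycomb complex PRC2 and its partners. These genes are of many lengths, so the 9 of 10 of the members is not directly comparable. JARID2, a PRC2 partner, had the highest density of its list, with 17 and 13 peaks in RT112 against 20 and 22 in UM-UC-3 (0.0608 peaks per kb over the 4 libraries). SMC1A, the cohesin subunit that STAG2 works with, had 7 and 5 peaks in RT112 against 2 and 1 in UM-UC-3. NIPBL, which loads cohesin onto DNA, had 5 and 2 against 13 and 9, and CTCF, which halts cohesin at loop anchors, had 8 and 3 against 3 and 4. In peaks per kb, both UM-UC-3 libraries lay above both RT112 libraries for 4 of the 10 cohesin genes and the reverse held for 2, against 30.8% and 9.62% of all genes. MEN1 (0.0630 peaks per kb), a partner of KMT2A, had the highest density of all the lists, but from 1 to 3 peaks per library in a gene of 7.79 kb.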

How the data were processed

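PAI-1 ChIP-seq was deposited as 1 peak list per ChIP library. Per the study's methods and processing notes, the authors aligned reads to hg19 with Bowtie 1.1.1, removed PCR duplicates with Picard and called peaks with MACS2 2.1.0.20140616. The control and any pooling of replicates are not given in the sources used here. A figure legend names a false discovery limit, and how it relates to the deposited lists is not stated. The deposited score was read as the −log10 of either a q-value or a p-value, and which of these it is was not stated. The study's methods give a read number only as an average over samples and the depth of each library is unknown, so no counting interval was computed.

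Lines with the same interval were counted once. Coordinates, counted from 1, fit GRCh37, and genes came from GENCODE 44 mapped to that build. A peak was assigned to a gene when it shared at least 1 bp with the gene or the 10 kb on each side. Density is peaks per kb of that window. For each member the 200 protein-coding genes nearest in length gave a median and a percentile, as a description only. Lines were compared with exact permutation tests over libraries, unadjusted. The labels do not say whether a replicate number marks a shared batch. Copies were searched with megablast (BLAST 2.17.0). Scripts used Python 3.11.15, numpy 2.4.6, pandas 2.3.3 and scipy 1.17.1, with plots in matplotlib 3.10.9, and counting was tested on simulated data.

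The members and the lists of complex partners were chosen with earlier results of these data known. All 10 members are named, with the best repeated peak per member and line, the peaks nearest to the 5′ end, and of each partner list at most the 3 genes with the most peaks per kb. Alternatives changed the window, score, gene model, scaling, overlap and number of length neighbours, and left out each library in turn. Some sequences that this rule named are not reported here.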

Additional observations from a re-analysis of the deposited data

How the results depend on the processing

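Of the settings that changed a result, a score of at least 5 had the widest effect. Members with a peak in both RT112 replicates fell from 9 to 5, while the UM-UC-3 count stayed at 9. The shares of all genes and of genes of similar length at that score were not computed. The fall is thus not read as a trait of the members. The mean share of repeated member peaks went from 72.7% (SD 1.56) to 74.8% in UM-UC-3 and from 45.4% (SD 17.1) to 53.7% in RT112. The per-gene differences turned to 0.00385 peaks per kb for KDM6A, 0.00453 for KMT2A and -0.00569 for CREBBP. The median density of the members relative to genes of similar length, 0.845 in RT112, became 0.968 with a 3 kb window, 0.978 with the gene body alone and 1.04 with a score of at least 5. It was 0.770 to 0.920 when either RT112 library was left out, and 0.761 to 0.904 for UM-UC-3. The summed difference of 0.00555 ranged from -0.00145 without RT112 replicate 2 to 0.0125 without RT112 replicate 1, and scaling by all protein-coding genes turned it to -0.150, where the unit is a ratio. For STAG2 it turned to -0.00310 with the longest coding transcript, -0.0511 when scaled by the chromosome, -0.00104 without near-identical copies (an alternative added after seeing the data) and -0.00518 without RT112 replicate 2, and for CHD6 to -0.0190 without that library. Leaving out RT112 replicate 1 gave the other end of the range, 0.00725 for STAG2 and 0.0233 for CHD6. The cause was not tested. With the replicate number as a block the summed difference was 0.00555 (exact sign permutation, p = 1). The deviations of replicate 1 over the 10 members correlated at -0.18 between the lines, and with crossed numbers, tried after seeing the data, 0 differences could pass, as the smallest paired p is 0.5. KMT2C and KMT2D kept their direction in all alternatives run. The unknown depth of each library limits every absence of a peak to these lists.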
